A study of Mus musculus with 12 samples.

Results

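The non-additive effect of CSF3R_T618I and CEBPA_V314VW was measured as an interaction, the effect of CSF3R_T618I in cells with CEBPA_V314VW minus its effect in cells without it, on the log2 scale. All 12 arrays of the series entered, and the contrast was taken for each of 22142 gene probe sets among the 28846 probe sets of the array. A value of 0 means that the combined group lay at the additive level, the mean with CSF3R_T618I plus the mean with CEBPA_V314VW minus the mean with empty vector. The interaction was called for 57 probe sets, 0.257% of those tested, at an adjusted p below 0.05 and a size of at least 2-fold (1 on the log2 scale). Of these, 52 carry a gene name, 5 are unnamed here, and 1 named probe set, the predicted gene Gm10665, has values identical to those of an unnamed one, so that the pair is read as 1.

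The cells were mouse HoxB8-ER progenitors, an immortalised line kept immature by an estrogen-dependent HoxB8 protein, and every group had been without estrogen for 24 hours. Each of the 4 groups received 2 MSCV retroviruses, one marked with GFP and one with mCherry, and held 3 arrays labelled as biological replicates A, B and C. Both viruses were empty in the empty vector group, the mCherry virus carried CSF3R_T618I in the second group, the GFP virus carried CEBPA_V314VW in the third, and both carried their mutant gene in the combined group. Cells positive for both markers were sorted and left for 1 week before withdrawal. The mutant genes were expressed from the viral promoter in 1 cell line that keeps its own Csf3r and Cebpa, and separate transductions are not stated, so p-values measure the spread between these samples.

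CSF3R is the receptor for granulocyte colony-stimulating factor, and T618I lets it signal without ligand through JAK kinases and STAT proteins. CEBPA encodes C/EBPα, a transcription factor required for granulocyte formation that binds DNA as a dimer, and V314VW changes its DNA-binding end. Both act on the maturation of myeloid cells. A gene can respond to the pair by more than the sum of the single responses (synergy). It can respond to each mutation alone but to the pair by less than the sum (saturation). It can also lose, with the second mutation, all or part of a response to the first (cancellation).

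The arrays were of even quality apart from replicate C of CSF3R_T618I and replicate C of the combined group, which had the lowest fitted array weights (0.324 and 0.486) and background control means of 5.25 and 5.27 against 4.98 to 5.11 on the others. Array medians ran from 6.59 to 6.76, and the correlation r between arrays of 1 group was 0.987 to 0.995. Medians and background controls themselves showed interactions of -0.015 and 0.007, and the median over all gene probe sets was -0.011. Without those 2 arrays 53 probe sets were called, 42 of them among the 57. As a check of the labels, Cebpa read 11.90 to 12.40 in the 6 arrays with CEBPA_V314VW and 10.60 to 11.07 in the other 6, and Csf3r read 11.67 to 12.16 with CSF3R_T618I and 10.88 to 11.49 without it, though the mutant genes are human and whether mouse probes read them was not tested. The progenitor markers were high, with the myeloperoxidase gene Mpo at group means of 13.74 to 13.88, close to 13.92, the highest gene value of the table. No interaction passed for any of the 10 measured granulocyte-macrophage progenitor markers, where 0.325% of all gene probe sets passed by adjusted p alone.

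Values near either end of the range cannot show the whole of an additive change, so each call was set beside both ends. A group mean counted as near background at or below 5.27, the highest array mean of the 23 background controls, and as near the top at or above 12.25, the level that 99% of gene probe sets stay under. Of the 57 called probe sets, 21 (36.8%) had a group near background, against 30.8% of all gene probe sets, and 5 (8.77%) had one near the top, against 1.21%. The other 31 had neither. The background limit is not specific to a gene, since the means of single background controls ran from 2.31 to 8.77.

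Positive interactions, where the combined group lay above the additive level, were called for 23 probe sets (0.104%), and negative ones for 34 (0.154%). By adjusted p alone 72 passed (0.325%), 25 positive (0.113%) and 47 negative (0.212%), and 1329 had an unadjusted p below 0.05. Sorted by shape, 11 of the 57 showed synergy, 11 saturation and 33 cancellation, and 2 were left unsorted. Cancellation touched the CSF3R_T618I effect in 8, the CEBPA_V314VW effect in 24 and both in 1. All synergy was positive and all saturation negative, though the definitions allow either sign. Cancellation held 10 positive and 23 negative interactions. Across all probe sets the CSF3R_T618I effects without and with CEBPA_V314VW correlated at r = 0.72, and the CEBPA_V314VW effects without and with CSF3R_T618I at r = 0.39. These pairs share no array, and they are descriptions across genes, which are not independent replicates.

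**Figure D1:**
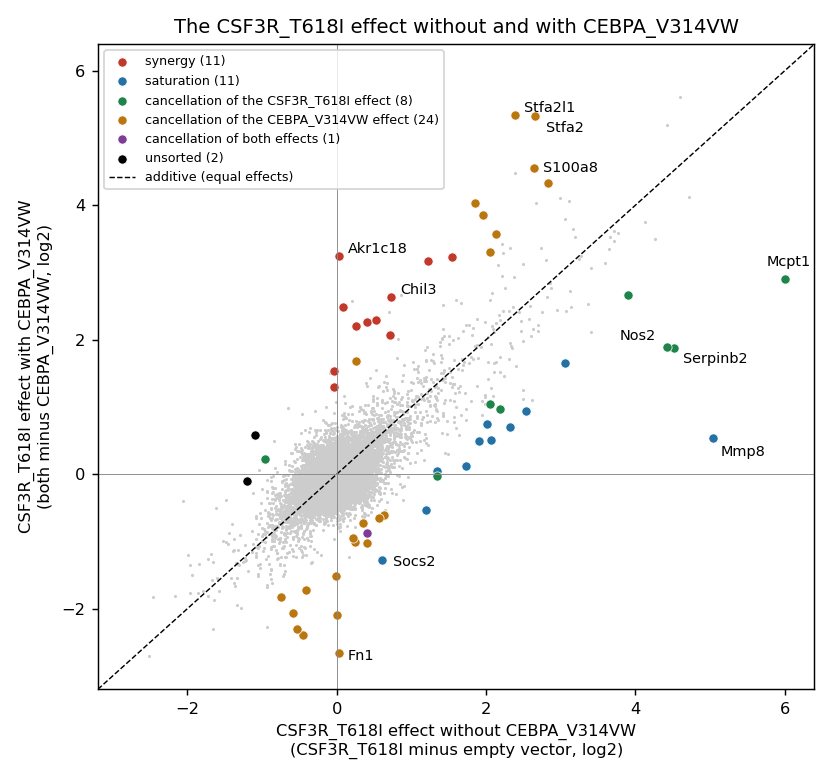
Each point is a gene probe set, with the CSF3R_T618I effect without CEBPA_V314VW on the x axis and with it on the y axis (both log2 differences of group means). Grey points are the probe sets that were not called, colours mark the shapes of the 57 called ones, and the distance from the dashed line is the interaction, from -4.5 for Mmp8 to 3.21 for Akr1c18.

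The count rests in part on single arrays: leaving out replicate A of the combined group left 37 calls (20 negative), and leaving out its replicate B left 22 negative ones. Synergy fell to 7 without empty vector replicate A, saturation to 7 without empty vector replicate C, and cancellation to 20 without combined replicate A, to 20 without combined replicate B and to 21 without CSF3R_T618I replicate B.

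Synergy was led by Akr1c18, a steroid-metabolising enzyme of the aldo-keto reductase family that inactivates progesterone. Its values were 4.81, 5.08 and 4.70 in the empty vector arrays, 4.60, 5.18 and 4.91 with CSF3R_T618I, 7.34, 7.18 and 6.65 with CEBPA_V314VW, and 10.15, 10.65 and 10.08 with both mutations. CSF3R_T618I made no difference that passed without CEBPA_V314VW (0.03 ± 0.21, adjusted p = 0.97), whereas with it the receptor mutant added 3.24 ± 0.21, a 9.44-fold rise. The interaction was 3.21 ± 0.30 (log2 difference ± SE, limma adjusted p = 0.00049), and the combined group stood 43.1-fold above empty vector. The groups without CEBPA_V314VW were near background, so the sizes of rises from them are not known. A CSF3R_T618I effect below that level would not show, so the size of the interaction is not known either. Only the step from CEBPA_V314VW alone to both lay clear of both ends.

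Teddm3, a transmembrane epididymal protein gene, showed this shape with no single effect that passed. Its 9 values outside the combined group ran from 4.15 to 4.99, and the 3 with both were 6.85, 6.96 and 6.99. The interaction was 2.40 ± 0.29 (adjusted p = 0.0029), measured from a level near background in 3 groups.

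Neighbouring genes for coagulation factors VII and X were both in this shape, and of other coagulation factor genes F13a1 was measured in a list and did not pass (-0.27 ± 0.15, adjusted p = 0.97). F7, coagulation factor VII, read 5.52, 5.21 and 5.89 in the empty vector arrays, 5.62, 5.71 and 6.07 with CSF3R_T618I, 6.18, 6.00 and 6.21 with CEBPA_V314VW, and 8.71, 8.14 and 8.18 with both mutations. Neither single effect passed (adjusted p = 0.60 and 0.24), and the interaction was 1.96 ± 0.27 (adjusted p = 0.0072). F10, coagulation factor X, stood at a higher level, at 8.73, 8.78 and 8.84, then 9.51, 9.59 and 9.42, then 8.16, 8.16 and 8.27, and with both at 10.43, 10.26 and 10.11. F10 is next to F7 on the chromosome, with 0 protein-coding genes between them, and was named after its values were seen. CEBPA_V314VW lowered F10 by itself (-0.59 ± 0.11, adjusted p = 0.0097) and raised it in cells with CSF3R_T618I (0.76 ± 0.11, adjusted p = 0.0023), for an interaction of 1.34 ± 0.15 (adjusted p = 0.0018).

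Among receptors, Cxcr1, a receptor for neutrophil-attracting chemokines, stayed between 5.20 and 6.4 in the other groups and reached 7.80, 8.2 and 7.72 with both (interaction 1.77 ± 0.30, adjusted p = 0.027). For Cxcr2, the related receptor, the CSF3R_T618I effect was 3.19 without and 3.53 with CEBPA_V314VW, and its interaction of 0.34 ± 0.18 did not pass (adjusted p = 0.94). Clec4b2, a C-type lectin receptor gene, read 6.12 to 6.98 in 9 arrays and 8.69, 8.57 and 8.38 with both (1.85 ± 0.18, adjusted p = 0.00074). Among enzymes, Alox15, the 12/15-lipoxygenase that oxidises polyunsaturated fatty acids, read 6.12 to 7.36 in 9 arrays and 8.29, 8.57 and 9.08 with both (1.56 ± 0.28, adjusted p = 0.038). Chil3, a chitinase-like protein made by neutrophil precursors and macrophages, was at 7.15, 7.54 and 7.32 in the empty vector arrays, 8.26, 8.10 and 7.83 in those with CSF3R_T618I, 8.85, 8.84 and 8.40 in those with CEBPA_V314VW and 11.56, 11.69 and 10.74 in the combined ones (1.90 ± 0.32, adjusted p = 0.027). Chil3 has close relatives in the genome whose RNA its probes may also read.

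The calls of 3 of these genes were near the limit of the adjusted p, and leaving out single arrays ended them. For Cxcr1, leaving out any of empty vector A and B, CSF3R_T618I A and C and combined A and B ended it (adjusted p = 0.059 to 0.081). That of Chil3 was lost without 9 of the 12 arrays, all except CSF3R_T618I replicate A, CEBPA_V314VW replicate B and replicate C of the combined group (0.052 to 0.088). That of Alox15 was lost without 10, all except CEBPA_V314VW replicate C and replicate A of the combined group (0.05 to 0.11).

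Serpinb9g, of the serpin B family of protease inhibitors, responded to CSF3R_T618I by itself (1.55 ± 0.14) and by 3.23 ± 0.14 in cells with CEBPA_V314VW, for an interaction of 1.68 ± 0.20 (adjusted p = 0.0024). Ehbp1, named after its values were seen, had an interaction of 1.32 ± 0.19 with all 4 group means near background (3.81 to 5.10), and an unnamed probe set had 1.95 ± 0.30. In all 11 synergistic probe sets the 3 combined arrays lay above the other 9, which the definition makes likely, and the combined group exceeded empty vector by 1.13 to 5.43. Neither single effect passed in 6 of them, the CSF3R_T618I effect passed in 3 and the CEBPA_V314VW effect in 3. A group near background was present in 5 of the 11.

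**Figure D2:**
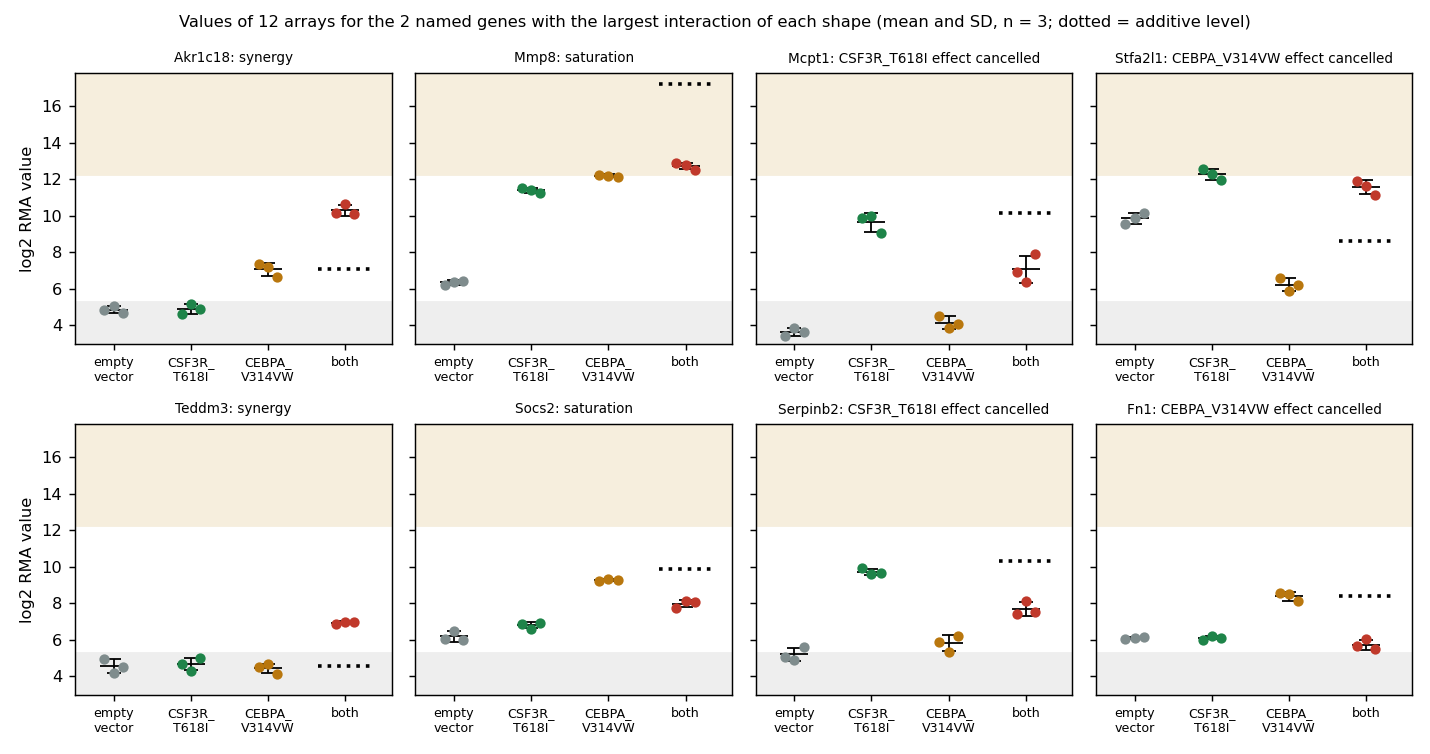
Points are the log2 RMA values of the 12 arrays for the 2 named genes with the largest absolute interaction of each shape, with black bars for the mean and SD of 3 arrays and a dotted line for the additive level. Grey bands mark levels at or below 5.27 (near background) and tan bands levels at or above 12.25 (near the top); the additive level of Mmp8, 17.22, lies above the highest value of the table, 13.92.

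Saturation was led by Mmp8, the collagenase that neutrophils store in specific granules and the gene with the largest interaction of all. It read 6.22, 6.37 and 6.45 in the empty vector arrays, 11.54, 11.39 and 11.23 with CSF3R_T618I, 12.25, 12.19 and 12.10 with CEBPA_V314VW, and 12.86, 12.80 and 12.50 with both mutations. Each mutation raised it alone, 32.9-fold and 56.9-fold, and the pair raised it 82.8-fold. The interaction was -4.5 ± 0.18 (adjusted p = 8.1e-08). The additive level of 17.22 lay above 13.92, the highest gene value of the table, so that an additive sum could not have been read on these arrays, and the combined mean was itself near the top. Mmp8 was the only called probe set with an additive level above the highest value.

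Other saturated genes lay in the middle of the range. Mgst1, the microsomal glutathione transferase, went from 8.96, 8.78 and 8.86 to 10.87, 10.78 and 10.65 with CSF3R_T618I and 10.89, 10.78 and 10.73 with CEBPA_V314VW, and only to 11.30, 11.33 and 11.24 with both. Its interaction was -1.41 ± 0.14 (adjusted p = 0.00089). Xdh, the xanthine dehydrogenase of purine breakdown, rose by 2.53 ± 0.16 with CSF3R_T618I and 1.61 ± 0.16 with CEBPA_V314VW. With both it read 9.41, 8.93 and 9.11, overlapping the 9.34, 9.20 and 8.86 of CSF3R_T618I alone (interaction -1.59 ± 0.22, adjusted p = 0.0072). Ccl6, a chemokine of myeloid cells, rose by 2.01 ± 0.13 and 1.90 ± 0.13 with the single mutations and by 2.64 ± 0.13 with both (-1.26 ± 0.18, adjusted p = 0.0072). Cmah, which makes a sialic acid, rose by 3.06 ± 0.13, 1.94 ± 0.13 and 3.59 ± 0.13 in the same order (-1.40 ± 0.18, adjusted p = 0.0047), but on the linear scale its interaction had the opposite sign.

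Socs2, a feedback inhibitor of cytokine receptor signalling that STAT proteins induce, combined saturation with a turn in direction. It read 6.05, 6.50 and 6.00 in the empty vector arrays, 6.88, 6.60 and 6.91 with CSF3R_T618I, 9.20, 9.31 and 9.28 with CEBPA_V314VW, and 7.76, 8.12 and 8.06 with both mutations. The 4 groups did not overlap. CSF3R_T618I raised Socs2 in cells without CEBPA_V314VW (0.61 ± 0.15, adjusted p = 0.028) and lowered it in cells with it (-1.28 ± 0.15, adjusted p = 0.00011), and the interaction was -1.90 ± 0.21 (adjusted p = 0.0018). Of the 21 measured JAK/STAT feedback and target genes Socs2 alone passed, against 0.325% of all probe sets, and the other 20 did not. Socs3, the feedback inhibitor of receptors that signal through STAT3, rose by 1.36 without and 1.2 with CEBPA_V314VW (interaction -0.16 ± 0.14, adjusted p = 1). The list's median CSF3R_T618I effect was 0.61 both without and with CEBPA_V314VW.

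Ifi211, of the interferon-inducible p200 family whose copies may be read together, rose from 4.23, 3.77 and 4.41 to 5.35, 5.22 and 5.45 with CSF3R_T618I and 6.60, 6.55 and 6.83 with CEBPA_V314VW, and read 6.15, 6.2 and 6.06 with both (-1.73 ± 0.21, adjusted p = 0.0033). The combined arrays lay between those of the single mutations, and empty vector was near background. Nlrp3, the inflammasome sensor, rose from a mean of 4.64 near background to 6.36 and 6.05, and stood at 6.16 with both (-1.61 ± 0.30, adjusted p = 0.043). Its call was lost without 10 of the 12 arrays, all except empty vector replicate B and CSF3R_T618I replicate C (adjusted p = 0.056 to 0.14), and also with quantile normalisation (0.071) and with median centring (0.056). None of the 23 measured interferon response genes, a list without Ifi211, had an interaction that passed, against 0.325% of all probe sets. For a list of this size that is near the share over all. In all groups 6 of them were near background.

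The remaining saturated probe sets were Mfsd6 (-1.56 ± 0.25), Nos1ap (-1.30 ± 0.15) and an unnamed one (-1.62 ± 0.29). Mfsd6, a membrane transporter-like gene, had the same mean of 7.81 with CSF3R_T618I and with both (adjusted p = 0.022). Leaving out any of empty vector B and C, CEBPA_V314VW A and C and combined A and C ended this call (0.05 to 0.068). Nos1ap, an adaptor of neuronal nitric oxide synthase named after its values were seen, read 9.64, 9.63 and 9.62 with CSF3R_T618I and 9.29, 9.07 and 9.10 with both, so CEBPA_V314VW raised it alone (0.83 ± 0.10) and lowered it beside CSF3R_T618I (-0.47 ± 0.10, adjusted p = 0.041). Of the 11 saturated probe sets the combined mean lay above both single means in 5, and 3 had a group near background.

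Cancellation of the CSF3R_T618I effect was led by Mcpt1 and Serpinb2. Mcpt1 encodes a chymase-like protease of mucosal mast cells and Serpinb2 the plasminogen activator inhibitor of monocytes and macrophages. Their promoters are shown because they had the largest interactions of this shape, and letters of the STAT motif TTCNNNGAA and the C/EBP motif TTGCNNAA, sought on both strands, are in capitals. The windows of 300 bases hold the start and the bases before it in RefSeq (GRCm38.p6), chr14:56017714-56018013 on the plus strand for Mcpt1 and chr1:107511173-107511472 on the plus strand for Serpinb2, the first of 2 starts listed.
Mcpt1: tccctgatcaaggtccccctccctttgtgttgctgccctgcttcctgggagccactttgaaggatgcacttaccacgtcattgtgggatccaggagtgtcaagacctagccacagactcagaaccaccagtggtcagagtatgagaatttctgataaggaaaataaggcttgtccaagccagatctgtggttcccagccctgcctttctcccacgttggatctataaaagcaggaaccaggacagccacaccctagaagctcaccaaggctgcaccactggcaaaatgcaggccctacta
Serpinb2: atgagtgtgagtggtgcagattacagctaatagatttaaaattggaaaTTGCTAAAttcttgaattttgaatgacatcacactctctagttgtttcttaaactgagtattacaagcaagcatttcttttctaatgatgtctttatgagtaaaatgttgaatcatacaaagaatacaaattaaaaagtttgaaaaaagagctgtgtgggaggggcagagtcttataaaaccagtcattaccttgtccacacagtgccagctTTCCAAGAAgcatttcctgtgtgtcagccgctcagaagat
The Mcpt1 window held neither motif and the Serpinb2 window held 1 of each, which do not overlap. Over 27025 promoters, 1 per gene, 8.47% held the STAT letters and 10.8% the C/EBP letters. Of the 40 called genes with a promoter in the table, among 52 named, 4 (10.0%) and 5 (12.5%) did. Matches are descriptions of letters, not of binding.

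Mcpt1 read 3.42, 3.85 and 3.61 in the empty vector arrays, 9.89, 9.96 and 9.04 with CSF3R_T618I, 4.52, 3.85 and 4.09 with CEBPA_V314VW, and 6.92, 6.38 and 7.88 with both mutations. The combined arrays lay between those of CSF3R_T618I and of the other groups, without overlap. The CSF3R_T618I effect was 6.00 ± 0.34 without and 2.91 ± 0.34 with CEBPA_V314VW, for an interaction of -3.10 ± 0.48 (adjusted p = 0.014), which was lost without empty vector replicate A (adjusted p = 0.052) or replicate A of the combined group (0.056). The groups without CSF3R_T618I were near background, so neither rise is known in full, while the 5.94-fold difference between CSF3R_T618I alone and both was not touched by that limit.

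Mast cell proteases related to Mcpt1 may be read by its probes, and 1 of them was called too. Mcpt4, a connective tissue mast cell chymase, read 4.98, 5.13 and 5.31 with CSF3R_T618I and 3.63 to 4.25 in the other 9 arrays (-1.36 ± 0.23, adjusted p = 0.027), with all group means at or below 5.14 and so near background. That call was lost without 8 of the 12 arrays, all except empty vector replicate A, CSF3R_T618I replicate A, CEBPA_V314VW replicate B and replicate C of the combined group (0.06 to 0.085). Mcpt2 had group means of 5.95, 8.45, 5.97 and 7.09 and did not pass (-1.37 ± 0.40, adjusted p = 0.43). Over the 21 measured markers of eosinophils, basophils and mast cells, 2 passed, Mcpt1 and Mcpt4, against 0.325% of all probe sets. The list mean per array ran from 7.23 to 7.27 with empty vector and 7.54 to 7.77 with CSF3R_T618I. It was 7.08 to 7.26 with CEBPA_V314VW and 7.21 to 7.40 with both. The carboxypeptidase gene Cpa3 of mast cells was high in every group (11.71 to 12.56) with an interaction of -0.13 ± 0.23, and 5 markers, among them Ccr3 and Il5ra, were near background in all groups. The part of these cell types in the result was not tested, and in bulk RNA fewer cells of a type and less RNA per cell cannot be told apart.

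Serpinb2 read 5.08, 4.91 and 5.60 in the empty vector arrays, 9.93, 9.58 and 9.63 with CSF3R_T618I, 5.89, 5.33 and 6.22 with CEBPA_V314VW, and 7.43, 8.10 and 7.51 with both mutations. Its interaction was -2.65 ± 0.35 (adjusted p = 0.0051), and 3.64-fold of the 22.9-fold CSF3R_T618I effect was left with CEBPA_V314VW. Nos2, the inducible nitric oxide synthase of activated phagocytes and one of the genes the study names, had the same form. It read 5.57, 4.86 and 4.74 in the empty vector arrays, 9.57, 9.45 and 9.43 with CSF3R_T618I, 5.26, 4.65 and 4.65 with CEBPA_V314VW, and 7.17, 6.54 and 6.52 with both mutations (-2.53 ± 0.34, adjusted p = 0.0053). For both genes the combined arrays lay apart from every other group, and empty vector was near background, as was CEBPA_V314VW alone for Nos2.

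Slc2a3, a glucose transporter, read 8.04, 8.24 and 8.28 in the empty vector arrays, 10.47, 10.44 and 10.22 with CSF3R_T618I, 8.11, 8.30 and 8.52 with CEBPA_V314VW, and 9.45, 9.16 and 9.24 with both mutations (-1.22 ± 0.19, adjusted p = 0.014). Leaving out empty vector replicate A (0.053), CSF3R_T618I replicate B (0.054) or combined replicate B (0.053) ended this call. Acod1, which makes the antimicrobial metabolite itaconate, stood at 5.77 ± 0.04, 7.83 ± 0.08, 5.96 ± 0.07 and 7.0 ± 0.08 (mean ± SD, n = 3) in the same order (-1.02 ± 0.13, adjusted p = 0.0053). Neither gene had a group near either end of the range. An unnamed probe set had the same form, with a CSF3R_T618I effect of 3.90 without and 2.67 with CEBPA_V314VW.

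Nrg1, the growth factor neuregulin, was the only one of the 8 that CSF3R_T618I lowered. It read 9.33, 9.20 and 9.12 in the empty vector arrays, 8.40, 8.34 and 8.03 with CSF3R_T618I, 9.0, 8.84 and 9.08 with CEBPA_V314VW, and 9.29, 9.22 and 9.09 with both mutations, back among the empty vector values (1.18 ± 0.17, adjusted p = 0.0094). In the 8 probe sets CEBPA_V314VW alone had no effect that passed. In 5 of the 8 the empty vector group was near background, so a fall with CEBPA_V314VW alone could not show in full. The CSF3R_T618I effect still passed with CEBPA_V314VW in 6, and the combined group remained beyond empty vector in 6 and returned to it in 2.

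Cancellation of the CEBPA_V314VW effect took both signs. In 9 probe sets the interaction was positive. The effect of CEBPA_V314VW alone was between -3.63 and -1.22 on the log2 scale. In cells with CSF3R_T618I it was between -1.19 and 0.20, and it did not pass in 5 of the 9. CSF3R_T618I alone raised 8 of the 9. For these the rise from CEBPA_V314VW alone to both is not by itself a loss of the CEBPA_V314VW effect. The 9 were led by the stefin A cluster, whose genes encode cytosolic inhibitors of cathepsins that maturing neutrophils make in quantity. Promoters of the 2 with the largest interaction are shown because the 2 genes are near copies, taken from RefSeq (GRCm38.p6) at chr16:36156561-36156860 on the plus strand for Stfa2l1 and chr16:36408314-36408613 on the minus strand for Stfa2, each window being 300 bases as above. No letters are in capitals, as neither window held either motif.
Stfa2l1: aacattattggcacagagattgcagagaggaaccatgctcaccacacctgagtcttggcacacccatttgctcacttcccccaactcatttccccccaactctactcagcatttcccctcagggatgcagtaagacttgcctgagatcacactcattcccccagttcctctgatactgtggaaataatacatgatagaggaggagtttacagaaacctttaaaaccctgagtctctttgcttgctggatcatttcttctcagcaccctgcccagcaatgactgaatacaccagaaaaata
Stfa2: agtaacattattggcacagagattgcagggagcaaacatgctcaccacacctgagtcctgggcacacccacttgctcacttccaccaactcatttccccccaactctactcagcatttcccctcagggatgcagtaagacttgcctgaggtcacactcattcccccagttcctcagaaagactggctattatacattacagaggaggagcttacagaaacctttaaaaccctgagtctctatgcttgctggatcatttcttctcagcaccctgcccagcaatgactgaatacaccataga
The 2 windows were identical at 275 of 304 aligned columns (90.5%). Other pairs of promoters compared in the cluster were 66.7% to 83.8% identical. Promoters are not what the probes read, and whether the genes of the cluster are read by each other's probes was not tested. Their values are not taken as independent of each other.

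Stfa2l1 read 9.55, 9.86 and 10.17 in the empty vector arrays, 12.53, 12.27 and 11.97 with CSF3R_T618I, 6.59, 5.89 and 6.2 with CEBPA_V314VW, and 11.90, 11.63 and 11.15 with both mutations. CEBPA_V314VW alone cut it 12.4-fold, while beside CSF3R_T618I the combined arrays lay just below those of CSF3R_T618I alone and the difference did not pass (-0.69 ± 0.23, adjusted p = 0.25). The interaction was 2.94 ± 0.33 (adjusted p = 0.0018). Seen from the receptor, CSF3R_T618I raised Stfa2l1 5.25-fold in cells without CEBPA_V314VW and 40.4-fold in cells with it.

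Stfa2 followed the same course, with means of 9.63, 12.29, 6.02 and 11.36 and an interaction of 2.67 ± 0.37 (adjusted p = 0.0072). Stfa1, another gene the study names, read 9.98, 9.93 and 10.07, then 11.95, 11.85 and 11.72, then 6.48, 6.88 and 6.57, and with both 10.84, 10.64 and 10.54 (2.18 ± 0.18, adjusted p = 0.00018). Its groups did not overlap, and CEBPA_V314VW still lowered it beside CSF3R_T618I (-1.17 ± 0.13, adjusted p = 0.00034). Cstdc5, Cstdc4 and Cstdc6, cystatin genes of the same cluster, had interactions of 1.89 ± 0.16, 1.5 ± 0.17 and 1.43 ± 0.20. CEBPA_V314VW still lowered these genes too beside CSF3R_T618I (-1.07, -0.88 and -1.19, limma adjusted p = 0.00027, 0.0022 and 0.00054). In all, 6 of the 10 measured Stfa and Cstdc genes were called, against 0.257% of all probe sets. As related genes that probes may read together, they are not taken as separate cases. Stfa3 was not (-0.47 ± 0.25, adjusted p = 0.94): it fell by 1.34 with CEBPA_V314VW alone and by 1.81 beside CSF3R_T618I. Cstdc1 and Cstdc2 were near background in all groups, and Cstdc3 had an interaction of -0.60 ± 0.39.

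S100a8, a subunit of the calcium-binding protein calprotectin, had the same form. It read 9.30, 9.72 and 9.67 in the empty vector arrays, 12.39, 12.24 and 11.99 with CSF3R_T618I, 6.99, 7.56 and 6.96 with CEBPA_V314VW, and 11.86, 11.75 and 11.54 with both mutations (1.91 ± 0.25, adjusted p = 0.0053). Its partner subunit S100a9 had an interaction of 2.09 ± 0.42, of similar size but larger error, and did not pass (adjusted p = 0.075). For S100a8 and the 6 stefin and cystatin genes the interaction had the opposite sign on the linear scale, where CEBPA_V314VW lowered the signal by more units in cells with CSF3R_T618I. Only 1 other called probe set, Cmah, did so, and the remaining 49 of 57 kept their sign. CSF3R_T618I alone was near the top for Stfa2l1, Stfa2, Cstdc5 and Cstdc4, at 12.26 to 12.72.

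Id2, an inhibitor of helix-loop-helix transcription factors, read 7.19, 7.26 and 7.07 in the empty vector arrays, 9.29, 9.14 and 9.27 with CSF3R_T618I, 5.69, 5.67 and 6.25 with CEBPA_V314VW, and 9.40, 9.07 and 9.05 with both mutations. CEBPA_V314VW lowered it 2.47-fold alone, and the groups with CSF3R_T618I overlapped (1.24 ± 0.22, adjusted p = 0.038). That call was lost without any 1 array except CEBPA_V314VW replicate C (0.057 to 0.12), and also with quantile normalisation (0.068) and without both arrays that stood apart (0.099). Cd24a, a surface glycoprotein of myeloid and lymphoid precursors, stood at 6.39 ± 0.07, 6.65 ± 0.32, 5.18 ± 0.29 and 6.85 ± 0.08, with the CEBPA_V314VW group alone near background (1.42 ± 0.24, adjusted p = 0.026). Its call was lost without 9 of the 12 arrays, all except CSF3R_T618I replicate A or C and CEBPA_V314VW replicate A (0.059 to 0.085).

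In 15 probe sets the sign was negative: CEBPA_V314VW raised the gene by 0.60 to 3.36 in cells without CSF3R_T618I and had an effect of -0.66 to 1.26 in cells with it, which did not pass in 12 of the 15. Fn1, the matrix protein fibronectin, was the clearest. It read 6.02, 6.09 and 6.16 in the empty vector arrays, 6.01, 6.22 and 6.12 with CSF3R_T618I, 8.56, 8.52 and 8.10 with CEBPA_V314VW, and 5.65, 6.03 and 5.50 with both mutations. Only CEBPA_V314VW alone stood apart, and the combined arrays overlapped empty vector and CSF3R_T618I. The interaction was -2.69 ± 0.22 (limma adjusted p = 0.00018). No group mean met the limit for either end, though the combined mean of 5.73 lay little above 5.27.

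**Figure D3:**
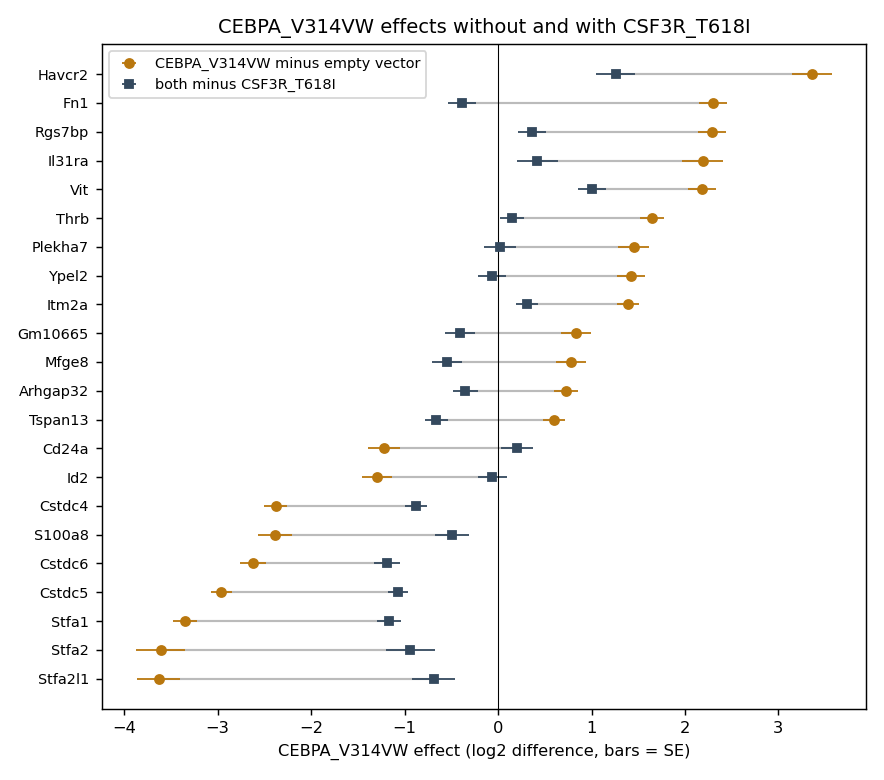
For the 22 named genes whose CEBPA_V314VW effect was cancelled, circles give the effect without CSF3R_T618I and squares the effect with it (x axis, log2 difference with SE bars, 3 arrays per group). Circles run from -3.63 (Stfa2l1) to 3.36 (Havcr2), and squares from -1.19 to 1.26.

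Receptors were the next group. Havcr2, the inhibitory receptor TIM-3, read 4.44, 4.5 and 5.27 in the empty vector arrays, 4.63, 4.85 and 4.71 with CSF3R_T618I, 8.11, 8.02 and 8.14 with CEBPA_V314VW, and 6.12, 6.24 and 5.61 with both mutations. Here the loss was partial, as CEBPA_V314VW still raised it 2.39-fold beside CSF3R_T618I (interaction -2.10 ± 0.29, adjusted p = 0.0072), and both groups without CEBPA_V314VW were near background. Il31ra, a subunit of the interleukin-31 receptor, rose from a mean of 5.21 to 7.41 with CEBPA_V314VW and stood at 5.10 with both (-1.78 ± 0.31, adjusted p = 0.032), with all groups but CEBPA_V314VW near background. That call was lost without 9 of the 12 arrays, all except CSF3R_T618I replicate A, CEBPA_V314VW replicate B and replicate C of the combined group (0.063 to 0.1). Thrb, the nuclear thyroid hormone receptor beta, read 8.03, 7.68 and 8.12 with CEBPA_V314VW and 6.17 to 6.55 in the other 9 arrays (-1.5 ± 0.18, adjusted p = 0.0029).

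Rgs7bp, which anchors a regulator of G protein signalling at the membrane, read 8.24, 7.85 and 7.69 with CEBPA_V314VW and 5.07 to 5.73 in the other 9 arrays (-1.94 ± 0.21, adjusted p = 0.0013), with CSF3R_T618I near background at a mean of 5.18. Ypel2, a zinc-binding protein of the yippee family, went from a mean of 5.76 to 7.18 with CEBPA_V314VW and 5.11 with both, near background as was CSF3R_T618I alone (-1.47 ± 0.21, adjusted p = 0.0072). Plekha7, a junction protein, read 7.98, 8.06 and 8.12 with CEBPA_V314VW and 6.28 to 7.34 elsewhere (-1.43 ± 0.25, adjusted p = 0.032). Mfge8, a secreted bridge between dying cells and phagocytes, read 8.13, 8.03 and 8.26 with CEBPA_V314VW and 6.17, 6.49 and 6.55 with both, below the 7.35, 7.46 and 7.30 of empty vector (-1.32 ± 0.23, adjusted p = 0.032). The call of Plekha7 was lost without 9 arrays, all except empty vector replicate B, CSF3R_T618I replicate B and replicate C of the combined group (0.063 to 0.096), and that of Mfge8 without 10, all except CSF3R_T618I replicate B and replicate C of the combined group (0.057 to 0.11).

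The other named genes of this shape, chosen after their values were seen, were Tspan13 (-1.26 ± 0.16, adjusted p = 0.0047), Gm10665 (-1.24 ± 0.22, adjusted p = 0.038), Vit (-1.17 ± 0.21, adjusted p = 0.042), Itm2a (-1.08 ± 0.17, adjusted p = 0.022) and Arhgap32 (-1.07 ± 0.19, adjusted p = 0.034). Tspan13, a tetraspanin, was raised by CEBPA_V314VW alone (0.60 ± 0.12) and lowered by it beside CSF3R_T618I (-0.66 ± 0.12, adjusted p = 0.01), with combined arrays of 7.85, 8.19 and 8.08 below all 9 others. Gm10665, its unnamed duplicate and 1 further unnamed probe set (-1.22 ± 0.23) were near background in all 4 groups. The calls of Gm10665, Vit, Itm2a and Arhgap32 were lost without 9, 10, 8 and 10 of the 12 arrays in turn. The arrays that each call survived were empty vector replicate B, CSF3R_T618I replicate A and CEBPA_V314VW replicate A for Gm10665, and empty vector replicate C and CSF3R_T618I replicate A for Vit. For Itm2a they were empty vector replicate A, CSF3R_T618I replicate A, CEBPA_V314VW replicate B and replicate C of the combined group, and for Arhgap32 empty vector replicate C and CEBPA_V314VW replicate C. Adjusted p-values reached 0.12, 0.13, 0.075 and 0.11.

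Cdh1, the epithelial adhesion molecule E-cadherin, was the 1 probe set in which both effects were cancelled. It read 7.23, 7.21 and 7.29 in the empty vector arrays, 7.76, 7.55 and 7.64 with CSF3R_T618I, 8.03, 7.94 and 8.14 with CEBPA_V314VW, and 7.28, 7.14 and 7.07 with both mutations. Each mutation raised Cdh1 alone (0.41 ± 0.10 and 0.79 ± 0.10), and the combined arrays overlapped empty vector (-1.28 ± 0.15, adjusted p = 0.0018).

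Ly6c2 and Tmem108 met no shape. Ly6c2, a surface antigen of monocytes and granulocyte precursors, had levels of 11.26 ± 0.17 (empty vector), 10.16 ± 0.17 (CSF3R_T618I), 10.15 ± 0.43 (CEBPA_V314VW) and 10.72 ± 0.20 (both). Each mutation lowered it, and the pair did not lower it further (1.67 ± 0.27, adjusted p = 0.023). Tmem108, a transmembrane protein, had means of 7.24, 6.03, 6.72 and 6.63 (1.11 ± 0.19, adjusted p = 0.032). The call of Ly6c2 was lost without 7 arrays, all except empty vector replicate C, CSF3R_T618I replicate A, CEBPA_V314VW replicate B or C and replicate C of the combined group (0.064 to 0.077), and that of Tmem108 without 10, all except CSF3R_T618I replicate B and CEBPA_V314VW replicate A (0.064 to 0.11).

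**Figure D4:**
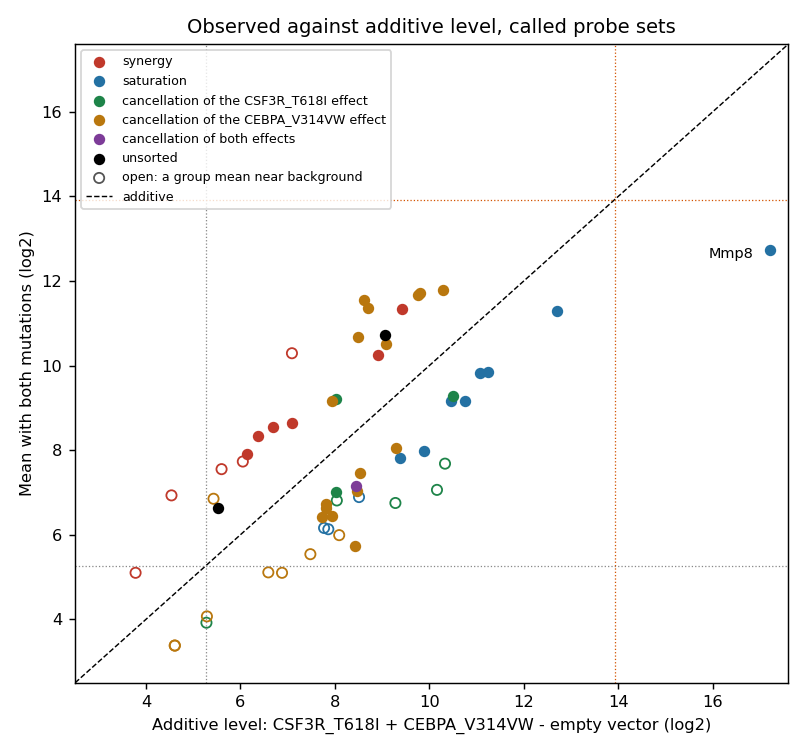
The additive level of each of the 57 called probe sets (x axis, log2) is set against its mean with both mutations (y axis, log2), with colours for the shapes and open symbols for the 21 with a group near background. Grey dotted lines lie at 5.27 and orange ones at 13.92; Mmp8 is the only point to the right of the upper limit.

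Among the 57, the CSF3R_T618I effect passed in 37 and the CEBPA_V314VW effect in 40, against 6.4% and 1.96% of all probe sets. Both passed in 26 and neither in 6. These contrasts share their arrays with the interaction, and the comparison is a description only. A further 15 probe sets passed the adjusted p with an interaction under 2-fold, 2 positive and 13 negative. Cd33, an inhibitory sialic acid-binding receptor of myeloid cells, read 9.64, 9.44 and 9.28 in the empty vector arrays, 11.15, 10.99 and 11.02 with CSF3R_T618I, 10.03, 9.91 and 9.83 with CEBPA_V314VW, and 10.55, 10.72 and 10.58 with both mutations (-0.91 ± 0.16, adjusted p = 0.039). Nfkbia, the inhibitor that NF-kB induces against itself, had a CSF3R_T618I effect of 1.41 ± 0.10 without and 0.61 ± 0.10 with CEBPA_V314VW (-0.80 ± 0.15, adjusted p = 0.043). The call of Cd33 was lost without any 1 array except empty vector replicate A (0.067 to 0.13), and that of Nfkbia without any 1 except replicate C of the combined group (0.072 to 0.13). Both were also lost with median centring (0.064 and 0.09) and without both arrays that stood apart (0.13 and 0.067).

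In most gene lists few or no interactions passed. The 24 late neutrophil effectors had a median CSF3R_T618I effect of 1.99 without and 1.90 with CEBPA_V314VW, and 19 of them did not pass the interaction (4 positive, S100a8, Stfa1, Stfa2 and Stfa2l1, and 1 negative, Nos2; median interaction 0.191, against -0.011 over all probe sets, of which 0.325% passed in either direction). Il1r2, the decoy interleukin-1 receptor, for example had CSF3R_T618I effects of 4.26 and 3.51 (interaction -0.76 ± 0.21, adjusted p = 0.38). Of 17 specific and gelatinase granule genes, Chil3 passed upward and Mmp8 downward. The gelatinase Mmp9 had CSF3R_T618I effects of 3.40 and 3.06 (-0.34 ± 0.31, adjusted p = 1), and the median over the list was 0.80 without and 1.37 with CEBPA_V314VW. None of the 5 NADPH oxidase genes passed, and their median CSF3R_T618I effects were 0.64 and 0.72.

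Receptor lists held few members that passed, beside 0.325% of all probe sets, and no list was tested as a set. Of 30 Fc and paired myeloid receptors 2 passed, Cd33 and Havcr2, both negative, with median CSF3R_T618I effects of 0.68 and 0.69. Pirb, the paired immunoglobulin-like receptor B, had effects of 3.67 and 3.52 (-0.14 ± 0.30, adjusted p = 1). Of 20 chemokines and chemokine receptors Cxcr1 passed upward and Ccl6 downward, of 20 myeloid transcription factors Id2 passed upward, and of 13 NF-kB factors and inhibitors Nfkbia passed downward. Among 18 monocyte, macrophage and dendritic cell markers Ly6c2 passed upward, the list mean per array ran from 6.70 to 7.08 over all groups, and C1qa, Itgax and Mrc1 were near background throughout. None passed among the 10 primary granule genes, 17 immediate early genes, 37 cell cycle and E2F target genes, 13 MAP kinase feedback genes, 17 ribosome biogenesis genes, 19 stem and progenitor genes, 13 cholesterol synthesis genes, 24 interleukin receptors, 26 Toll-like and C-type lectin receptors, 17 leukocyte integrins, 17 BCL2 family genes, or 9 C/EBP and Trib regulators. Nor did any of 11 erythroid and megakaryocyte or 16 lymphoid markers. The lists do not hold Il31ra or Clec4b2, which were called above. The primary granule genes had list means of 12.35 to 12.64 by group, near the top, so an additive change may not show in full. Near background in all groups were 3 interleukin receptors, 5 Toll-like and C-type lectin receptors, 2 integrins and 4 lymphoid markers. So were 1 stem and progenitor gene and 1 BCL2 family gene. The median CSF3R_T618I effect of the immediate early genes was 0.84 without and 0.40 with CEBPA_V314VW, with no single interaction that passed.

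**Figure D5:**
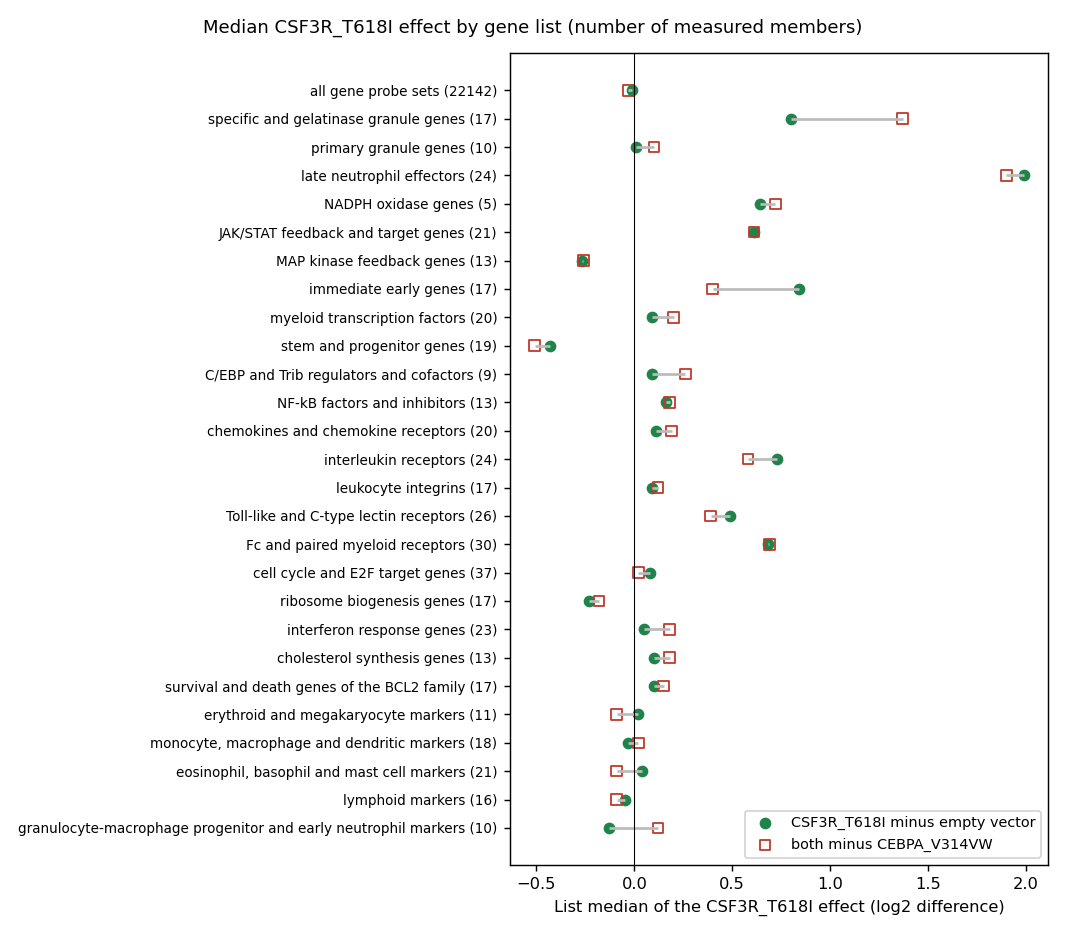
For each gene list, the median CSF3R_T618I effect over its measured members (number in brackets) is shown without CEBPA_V314VW (filled circles) and with it (open squares) on the x axis (log2 difference). The late neutrophil effectors had the highest medians of the lists shown, 1.99 and 1.90, and all gene probe sets lay at -0.01 and -0.03.

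Of the genes the study names, Nos2 was called with a negative and Stfa1 with a positive interaction, while Bcl6 (0.18 ± 0.20, adjusted p = 1), Pla2g7 (0.28 ± 0.20, adjusted p = 1) and Myb (0.12 ± 0.12, adjusted p = 1) did not pass. Pla2g7, a phospholipase, had CSF3R_T618I effects of 0.96 and 1.24. Myb, a transcription factor of progenitors, fell with CSF3R_T618I by 0.56 without and by 0.44 with CEBPA_V314VW, from levels near the top. As the study named these genes with these arrays in hand, their count is not independent evidence. The genes that bear on the vectors and the line did not pass: Cebpa had an interaction of 0.52 ± 0.16 (adjusted p = 0.49), Csf3r 0.11 ± 0.13 (adjusted p = 1) and Hoxb8 0.32 ± 0.18 (adjusted p = 0.97). With 3 arrays per group the smallest interaction that passed was 0.71, and the median standard error of the interaction was 0.21.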

How the data were processed

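RNA of 4 groups of 3 samples, taken in randomised order from 100 ng each, was hybridised to whole-transcript mouse arrays (GeneChip Clariom S). The authors made the deposited log2 values with RMA (background correction, normalisation between arrays and summary per probe set) in Expression Console; versions, settings and annotation build are not given in the sources used here. The values were used as deposited. Of 28846 probe sets, 6640 controls and 64 unmapped ones were left out. Of the 22142 tested, 19527 carried 1 gene symbol and 2615 were unnamed here, and the 12 values of 142 repeated those of another probe set.

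A model with 1 mean per group was fitted with limma 3.58.1 (lmFit and eBayes, R 4.3.3), and p-values were adjusted by Benjamini-Hochberg over all tested probe sets, within each contrast. Single genes and list members passed at an adjusted p below 0.05, two-sided; calls also needed an interaction of at least 1 on the log2 scale. For synergy the combined mean lay beyond the other 3 and passed against each. For saturation both single effects and the combined effect passed against the sign of the interaction. For cancellation a single effect passed against that sign and the combined group passed against that single group along it. Named genes were up to 8 per shape and sign with the largest interaction, up to 4 passing members per list, and genes the study names or that check the labels; others are stated. The members and lists were chosen with earlier results of these data known. Promoters came from RefSeq. The script was tested on simulated data. Alternatives were a replicate block, leaving out arrays, array weights, a variance trend, quantile or median scaling, filters and other limits. The number of arrays limits the precision.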

Additional observations from a re-analysis of the deposited data

Results flagged for a closer look

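By its contrast the interaction compares the effect of CSF3R_T618I between cells without and with CEBPA_V314VW, and that effect differed for 57 probe sets by the test of the difference itself (limma, adjusted p below 0.05 and at least 2-fold). In 7 of these an effect of 1 mutation passed in opposite directions without and with the other. The CSF3R_T618I effect turned from a rise to a fall for Socs2 (interaction -1.90), Cdh1 (-1.28), Gm10665 (-1.24) and its unnamed duplicate TC0700002521.mm.2 (-1.24), the last pair near background in all groups. The CEBPA_V314VW effect turned from a rise to a fall for Cdh1 too, Nos1ap (-1.30) and Tspan13 (-1.26), and from a fall to a rise for F10 (1.34). Groups of 3 arrays are too small for the screen for single outlying arrays.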

How the results depend on the processing

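On the log2 scale the 54 genes tracked that passed kept their sign in every alternative they entered, up to 19 each. On the linear scale 8 of the 57 called probe sets had the opposite sign. Against 57 calls (23 positive, 34 negative; 11 synergy, 11 saturation, 33 cancellation), array quality weights gave 88 (39 positive, 21 synergy, 17 saturation), and a variance trend with robust moderation gave 79 (39 positive, 20 synergy, 17 saturation). Leaving out 1 array at a time gave 37 to 56 calls, 16 to 27 positive, 20 to 32 negative, 7 to 14 synergy, 7 to 10 saturation and 20 to 33 cancellation, with 36 to 48 of the 57 kept. The background limit at 8.68 in place of 5.27 put 55 of the 57 near background, and the top limit at 10.79 put 11 near the top. Quantile normalisation gave 56, median centring 59, leaving out dim probe sets 56, and testing unmapped probe sets too, chosen after seeing the data, 57. Of 60 genes tracked, 54 passed, 33 of them in every alternative they entered and 21 not in at least 1. Ehbp1, Mcpt4 and Gm10665 entered only 18, as the filter on dim probe sets removed them. Leaving out both arrays that stood apart ended the calls of Alox15, Arhgap32, Cd24a, Cd33, Cxcr1, Gm10665, Id2, Ly6c2, Mfge8, Mfsd6, Nfkbia, Tmem108 and Vit.

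With the replicate letter as a block 52 were called, 50 of them among the 57 (23 positive, 29 negative); Alox15, Arhgap32, Cd33, Gm10665, Id2, Nfkbia and Vit no longer passed. The letters do not pair the samples: deviations from the group means correlated at -0.25 to 0.17 over 18 same-letter pairs and at -0.32 to 0.35 between letters.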
